A study of Homo sapiens with 12 samples.

Results

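The BCL2 family of mitochondrial apoptosis was followed through 10 of its genes in MDA-MB-231 cells, a human triple-negative breast carcinoma line, and in a TRAIL-resistant derivative of it. TRAIL is a death ligand of the tumour necrosis factor family that binds death receptors at the cell surface. The members were chosen by name, as BID, BBC3, PMAIP1, BCL2L11, BAX, BAK1, BCL2, BCL2L1, MCL1 and BCL2A1. They and the gene lists below were chosen with earlier results of these data known. Counts of them set beside all genes are therefore descriptions. The members belong to 1 family. Each member was read by the 1 array feature that the platform annotation assigned to that gene alone, so members made up 10 of the 18417 genes measured. All 10 were measured, and no filter on low values was applied.

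The 4 groups held 3 arrays each. They were treated-to-resistance (TTR) MDA-MB-231 cells given TRAIL at 100 ng per ml for 2 hours, untreated TTR cells, parental MDA-MB-231 cells given the same TRAIL dose for 2 hours, and untreated parental cells. The sources used here do not say how the TTR cells were selected, or whether they are 1 clone or a pool. Sample titles call the controls untreated and name no vehicle. Effects of TRAIL and of the handling that came with it therefore cannot be told apart. Total RNA of bulk cells was hybridised to one-colour Affymetrix arrays, and the deposited values are log2 signals, so a difference of 1 is a doubling of signal. A level of 1 gene cannot be set against that of another, because each feature has its own probes. In bulk RNA, fewer cells holding a transcript and less of it per cell cannot be told apart. The labels do not say that the 3 arrays of a group came from separate cultures, so p-values measure the spread between these arrays, which may be technical. An unexplained tag in the labels differs between all parental and all TTR arrays, and its effect and that of the line cannot be told apart.

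The BCL2 family decides whether the outer membrane of the mitochondrion becomes permeable and releases cytochrome c. BAX and BAK1 form the pores, the guardians BCL2, BCL2L1 (BCL-XL), MCL1 and BCL2A1 hold them in check, and BH3-only proteins such as BID, BBC3 (PUMA), PMAIP1 (NOXA) and BCL2L11 (BIM) neutralise the guardians or activate the pore formers. Death receptors engage this step through caspase-8, which cleaves the BID protein. Arrays read messenger RNA and see neither that cleavage nor protein turnover.

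Promoter stretches are shown for the BH3-only genes PMAIP1, BCL2L11 and BBC3, whose messenger RNA moved together in parental cells. RefSeq entries (GRCh38.p14) matched 9 of the 10 members, and 5 motifs were searched on both strands in the 250 bases before each start. Capitals mark a matched motif. The PMAIP1 window, chr18:59899746-59899995 on the plus strand, holds the cyclic AMP response element half-site ACGTCA from -56 to -51 relative to the start. The BCL2L11 window, chr2:111120664-111120913 on the plus strand, holds the FOXO motif GTAAACA from -223 to -217. For BBC3 a stretch of 30 bases is given, chr19:47232762-47232791 on the minus strand, with the AP-1 motif TGANTCA from -113 to -107. The BBC3 start used lies inside the annotated gene, chr19:47220824-47232860, and so does this stretch.
PMAIP1: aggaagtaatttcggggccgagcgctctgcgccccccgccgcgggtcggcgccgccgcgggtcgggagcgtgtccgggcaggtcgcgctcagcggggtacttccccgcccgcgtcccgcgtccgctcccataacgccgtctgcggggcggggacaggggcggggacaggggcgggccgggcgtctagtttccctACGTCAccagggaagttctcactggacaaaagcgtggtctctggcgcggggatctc
BCL2L11: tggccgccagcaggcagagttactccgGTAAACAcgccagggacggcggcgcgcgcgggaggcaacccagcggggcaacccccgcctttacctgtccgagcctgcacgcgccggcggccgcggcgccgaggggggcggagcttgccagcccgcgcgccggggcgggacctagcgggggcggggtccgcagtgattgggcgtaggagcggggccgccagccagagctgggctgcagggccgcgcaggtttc
BBC3: gcactggaaggTGAGTCActctggtgaggc
Of 27305 RefSeq promoter windows of that length, 7.42% held ACGTCA, 2.98% held GTAAACA and 6.6% held TGANTCA. The E-box CACGTG was found 4 times in the BAX window and at 1 place in the BBC3 window. It was also in 2 of the 5 BID entries, which overlap and hold the same site. Of all windows, 6.49% held it. The NF-kB motif, GGG followed by any 2 bases and TTTCC, was in none of the 9 members' windows, against 1.73% of all windows. These matches describe letters, and no binding was measured.

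Marker levels are given for each list as they stand, since levels of different features are not comparable and give only a rough check of the labelled line. VIM, CD44, CAV1, AXL and SNAI2, the 5 markers of a basal or mesenchymal breast line, read between 8.22 and 11.86 in every array. The 5 blood markers measured read between 2.07 and 4.99, and the 6 fibroblast and endothelial markers between 2.12 and 5.96. Luminal markers spanned 2.21 to 8.73, with KRT19 the highest. Levels of each list were also summed on the linear scale and are given in log2, so the features with the strongest signal dominate. The summed level of the basal list was 13.51 to 13.58 in TTR cells with TRAIL and 13.39 to 13.61 in untreated TTR cells. It was 12.99 to 13.10 in parental cells with TRAIL and 13.20 to 13.35 in untreated parental cells. The luminal list summed to 8.41 to 8.69, 8.45 to 9.07, 8.27 to 8.48 and 8.46 to 8.63 in the same order of groups. The blood list summed to 5.79 to 5.91, 5.84 to 5.95, 6.02 to 6.23 and 5.89 to 6.08 in those groups, and the fibroblast and endothelial list to 6.53 to 6.56, 6.38 to 6.51, 6.79 to 6.87 and 6.6 to 6.76. The part of these shifts in the results below was not tested.

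The parental arrays with TRAIL stood apart. They correlated with arrays of other groups at 0.921 to 0.963 over all features, whereas arrays of the same group correlated at 0.989 to 0.995 and arrays of the other groups with one another at 0.984 to 0.992. Array medians were 4.38 to 4.40 in TTR cells with TRAIL, 4.58 to 4.61 in parental cells with TRAIL and 4.24 to 4.31 in the untreated arrays. With TRAIL the median feature was therefore up by 0.11 in TTR and by 0.29 in parental cells. These medians include the features that name no gene. Over all genes the median change with TRAIL was -0.01 in TTR and 0.06 in parental cells as deposited. After centring it was -0.11 in TTR and -0.24 in parental cells. Centring thus subtracts a larger shift than the median gene showed, and calls that it alters depend on that choice. Member changes are given on the deposited scale, and also after centring each array on its median where that alters a call.

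In parental cells, 2 hours of TRAIL moved 7 of the 10 members. The BH3-only genes PMAIP1, BBC3 and BCL2L11 and the guardian MCL1 rose, while BID, the pore former BAK1 and the guardian BCL2L1 fell. BAX, BCL2 and BCL2A1 did not pass the test. These calls came from limma fitted over all 18417 genes with Benjamini-Hochberg adjustment, at an adjusted p under 0.05. In this comparison 58.8% of all genes were called, 28.9% higher and 29.9% lower, so 7 of 10 was near the background and is not a result about the family. After median centring 4 members were higher and 5 lower, against 59.4% of all genes called (12.6% higher and 46.7% lower). After quantile normalization all 10 members and 50.5% of all genes were called (19.1% higher and 31.4% lower).

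PMAIP1, which binds MCL1 and marks it for destruction, read 10.32, 10.22 and 10.58 in the parental arrays with TRAIL, against 8.99, 8.88 and 9.10 in untreated parental arrays. Every array with TRAIL was above every untreated one, and the arrays of all 7 called members were likewise apart, as held for 62.2% of all genes. The change was 1.38 ± 0.12 (log2, SE, n = 3 arrays a group), or 2.61-fold, with a limma adjusted p of 3.05e-08. BBC3, a BH3-only protein that binds all the guardians, read 6.55, 6.46 and 6.68 with TRAIL in parental cells, against 5.25, 5.67 and 5.21 without it. Its lowest array with TRAIL lay above the highest untreated one, and the change was 1.19 ± 0.13 or 2.28-fold (limma adjusted p = 5.20e-07).

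BCL2L11, also a BH3-only protein that binds all the guardians, read 6.65, 6.71 and 7.02 in parental cells with TRAIL and 5.68, 5.82 and 5.65 in untreated parental cells. The groups were about 1 log2 unit apart, with a change of 1.08 ± 0.13 or 2.11-fold (limma adjusted p = 2.51e-06). MCL1, a guardian whose protein is short-lived, read 11.29, 11.30 and 11.37 with TRAIL in parental cells, against 10.06, 9.97 and 9.88 untreated. The arrays with TRAIL lay within 0.1 of one another and well above the untreated ones, a rise of 1.35 ± 0.10 or 2.55-fold (limma adjusted p = 5.95e-09).

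BID, the member that caspase-8 cleaves, read 7.07, 6.65 and 6.92 in the parental arrays with TRAIL and 8.27, 8.11 and 8.36 in the untreated parental arrays. All arrays with TRAIL were lower, and the log2 change was -1.37 ± 0.12, a 2.58-fold fall (limma adjusted p = 3.86e-08). BAK1 read 5.87, 5.99 and 6.40 with TRAIL in parental cells, against 7.21, 7.02 and 7.09 without it. Its fall of -1.02 ± 0.12 in log2, or 2.03-fold, had a limma adjusted p of 2.08e-06, and its arrays with TRAIL spread more widely than its untreated ones. BCL2L1 read 9.64, 9.76 and 9.67 in treated parental cells, against 10.22, 10.29 and 10.32 in untreated ones. The arrays again did not overlap, and the log2 change was -0.59 ± 0.09 or 1.5-fold lower (limma adjusted p = 2.07e-05).

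BAX, the other pore former, averaged 8.16 ± 0.08 in parental cells with TRAIL and 8.10 ± 0.10 in untreated parental cells (SD, n = 3 each), a log2 change of 0.06 with a 95% interval of -0.15 to 0.26. Its direction depended on the scaling, at -0.23 after median centring (limma adjusted p = 0.0541) and 0.33 after quantile normalization (limma adjusted p = 0.00789). BCL2, the founding guardian, averaged 5.16 ± 0.06 with TRAIL and 5.23 ± 0.03 without it in parental cells. Its change was -0.07 with an interval of -0.28 to 0.13, and it passed the test as lower after centring (-0.36, limma adjusted p = 0.00523) and after quantile normalization (-0.30, limma adjusted p = 0.0139). BCL2A1, an inducible guardian, averaged 3.27 ± 0.02 in treated and 3.49 ± 0.24 in untreated parental cells, with a change of -0.22 and an interval of -0.49 to 0.05. It too passed as lower after centring (-0.51, limma adjusted p = 0.00204) and quantile normalization (-0.43, limma adjusted p = 0.00824), and also without the untreated parental replicate 1 (-0.33, limma adjusted p = 0.0431). Its mean level lay at the lower quartile of all genes, 3.36, and whether its signal was above background was not called.

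**Figure D1:**
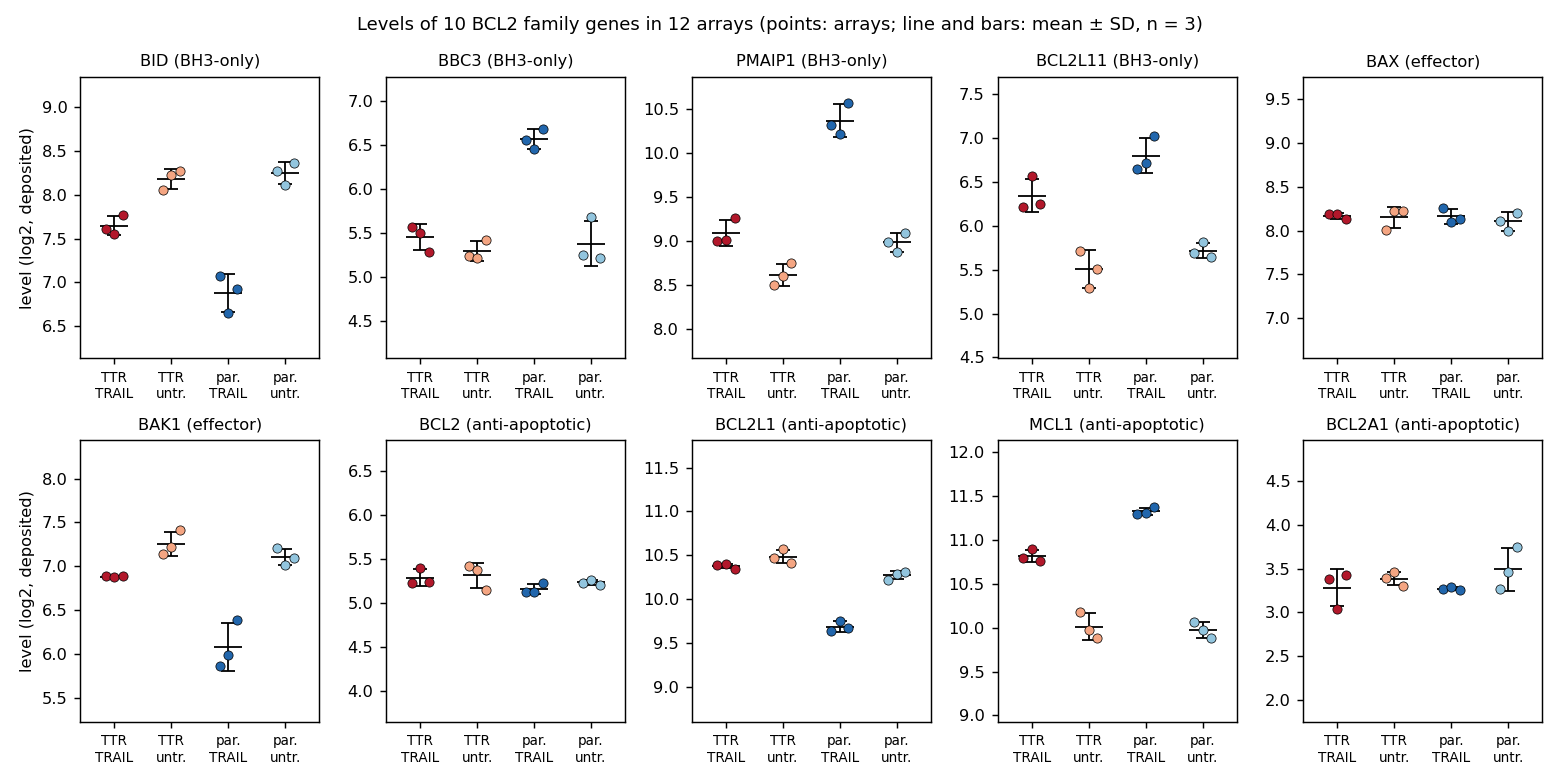
Log2 level of each of the 10 genes in every array, with 1 panel per gene and the 4 groups along the horizontal axis. Points are single arrays and lines are group means, and every vertical axis spans the same number of log2 units. MCL1 is high in both groups with TRAIL and BBC3 only in the parental one, where its mean was 6.57 against 5.45 in TTR cells with TRAIL.

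In TTR cells the same TRAIL treatment moved 4 of the 10 members, against 5.82% of all genes called (3.27% higher and 2.55% lower). BCL2L11, MCL1 and PMAIP1 rose and BID fell, each in the direction seen in parental cells. After median centring the same number of members and 13.0% of all genes were called (2.43% higher and 10.6% lower). BCL2L11 read 6.22, 6.56 and 6.25 in TTR cells with TRAIL, against 5.72, 5.29 and 5.51 in untreated TTR cells. The arrays did not overlap, as held for 27.5% of all genes, and the rise was 0.84 ± 0.13 or 1.79-fold (limma adjusted p = 0.00107). MCL1 read 10.80, 10.89 and 10.75 with TRAIL in TTR cells and 10.17, 9.98 and 9.88 without it. Again the groups were apart, by 0.80 ± 0.10 or 1.75-fold (limma adjusted p = 8.39e-05). These 2 rises passed under every alternative tried.

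PMAIP1 read 9.0, 9.01 and 9.26 in treated TTR cells, against 8.51, 8.60 and 8.75 in untreated TTR cells. Its arrays did not overlap, but the rise of 0.47 ± 0.12, or 1.39-fold, passed narrowly (limma adjusted p = 0.0272). The call was lost after median centring (0.37, limma adjusted p = 0.0515), and without TTR TRAIL replicate 1, 2 or 3 or untreated TTR replicate 1 or 2, at limma adjusted p of 0.0532, 0.0692, 0.109, 0.0633 and 0.0936 in that order. BID read 7.61, 7.55 and 7.77 with TRAIL in TTR cells and 8.05, 8.22 and 8.26 untreated. All treated arrays were lower, by 0.54 ± 0.12 or 1.45-fold (log2 change -0.54, limma adjusted p = 0.0135). That call was lost without TTR TRAIL replicate 1 or 2 (limma adjusted p = 0.0582 and 0.083) and without untreated TTR replicate 2 or 3 (limma adjusted p = 0.0652 and 0.0587). The number of members called accordingly came to 2 without TTR TRAIL replicate 1, TTR TRAIL replicate 2 or untreated TTR replicate 2.

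BAK1 was a borderline case. It read 6.89, 6.88 and 6.89 in TTR cells with TRAIL, against 7.14, 7.22 and 7.41 in untreated TTR cells. Every treated array was lower, with a log2 change of -0.37 ± 0.12 and a limma adjusted p of 0.0896. Between the TTR groups, arrays with the same replicate number tended to deviate together, though the labels do not say that they are paired. BAK1 passed as lower in a fit of those groups blocked by replicate (limma adjusted p = 0.0238). That fit, which differs from the reported one both in the block and in the arrays used, called 2670 genes, against 1072 as reported, 1567 with the block over all arrays and 1709 without the parental TRAIL arrays. BAK1 also passed after median centring (-0.48, limma adjusted p = 0.0211).

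BCL2L1 read 10.39, 10.40 and 10.35 in treated TTR cells, against 10.47, 10.57 and 10.42 in untreated ones. All treated arrays were lower, but by only -0.11 with an interval of -0.29 to 0.08 (limma adjusted p = 0.557). BBC3 read 5.57, 5.5 and 5.28 with TRAIL in TTR cells and 5.23, 5.21 and 5.42 without it. The arrays overlapped, and the change was 0.16 with an interval of -0.11 to 0.43 (limma adjusted p = 0.529). For BAX, BCL2 and BCL2A1 the differences with TRAIL in TTR cells were 0.02, -0.03 and -0.10, at limma adjusted p of 0.941, 0.908 and 0.722.

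**Figure D2:**
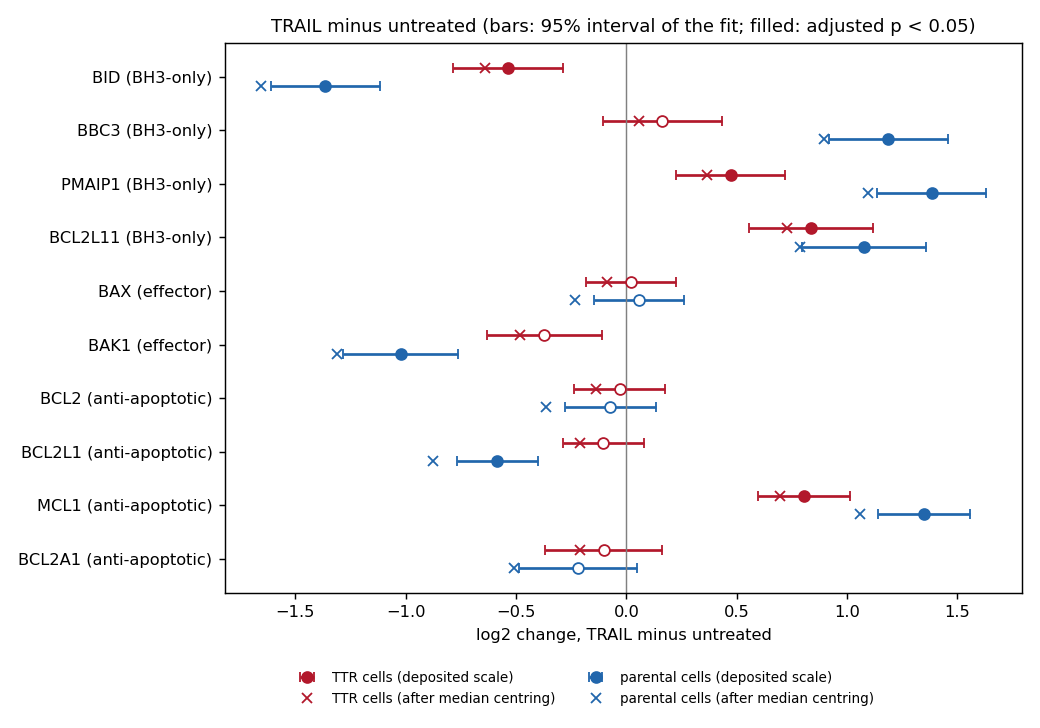
Log2 change with TRAIL for each of the 10 genes in TTR and in parental cells, with bars for the 95% interval of the limma fit and filled points for an adjusted p under 0.05. Crosses give the change after median centring. BCL2L11 lies near the same place in both lines, at 0.84 in TTR and 1.08 in parental cells, and BBC3 does not, at 0.16 and 1.19.

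An interaction term asked whether TRAIL moved a gene by a different amount in TTR cells than in parental cells. It passed for 6 of the 10 members, against 37.2% of all genes (22.9% above 0 and 14.3% below). The rises of 3 genes were smaller in TTR cells. The differences in log2 were -1.03 ± 0.18 for BBC3 (limma adjusted p = 2.70e-04), -0.91 ± 0.17 for PMAIP1 (3.47e-04) and -0.55 ± 0.14 for MCL1 (0.00535). The MCL1 difference was -0.36 after median centring, where 5 members and 36.3% of all genes passed (29.4% above 0 and 6.92% below), and no longer passed (limma adjusted p = 0.0566). The falls of 3 genes were also smaller, with differences of 0.83 ± 0.17 for BID (limma adjusted p = 8.21e-04), 0.65 ± 0.17 for BAK1 (0.00755) and 0.48 ± 0.12 for BCL2L1 (0.00544).

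BCL2L11 was the member whose rise in parental cells was not shown to differ in TTR cells. Its difference was -0.24 ± 0.19 with a 95% interval of -0.64 to 0.16 (limma adjusted p = 0.345), which leaves room for a smaller response in TTR cells. BAX, BCL2 and BCL2A1 differed by -0.04, 0.04 and 0.12, at limma adjusted p of 0.866, 0.842 and 0.647.

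Expressed as a share of the parental log2 change, the TTR change was 77.7% for BCL2L11, 59.6% for MCL1, 39.2% for BID, 36.5% for BAK1, 34.1% for PMAIP1, 17.9% for BCL2L1 and 13.6% for BBC3. For comparison, the 2919 genes called higher by at least 0.5 in parental cells had a median share of 23.9% (quartiles 11.1% and 38.6%). The 4426 genes called lower by at least 0.5 had a median share of 19.6% (quartiles 12.7% and 27.7%). BCL2L11, MCL1, BID and BAK1 thus lay above the upper quartile of the genes that moved their way, and PMAIP1, BCL2L1 and BBC3 lay between the quartiles. After median centring the shares were 92.8% for BCL2L11, 65.8% for MCL1, 24.2% for BCL2L1 and 6.2% for BBC3. Those of BID, BAK1 and PMAIP1 moved by under 1 percentage point. The quartiles over all genes were not computed after centring. These shares are a description without a test, and the genes entered only because they were called in parental cells.

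**Figure D3:**
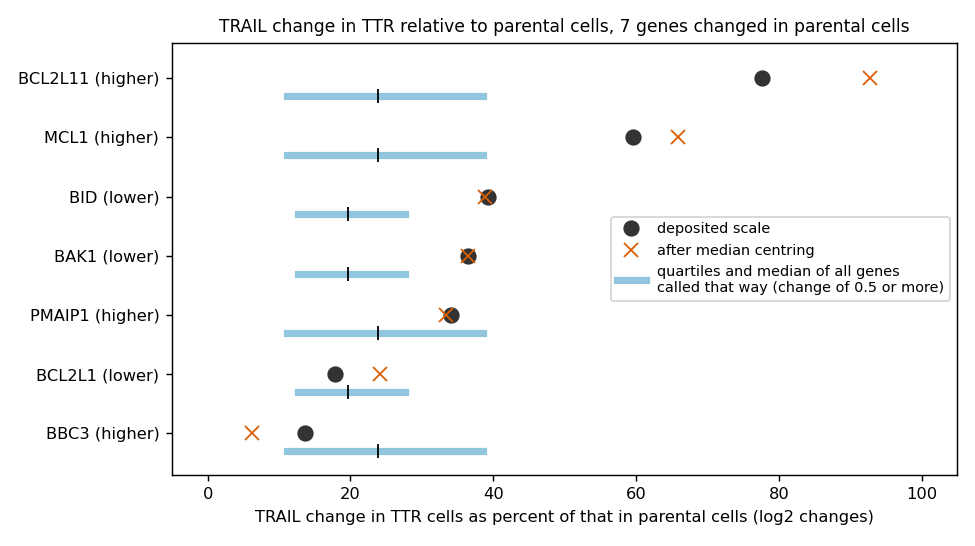
TRAIL change in TTR cells as a percent of the change in parental cells, for the 7 genes called in parental cells, as deposited (dots) and after median centring (crosses). Blue bars run between the quartiles of all genes called that way with a change of at least 0.5, with a tick at the median. The bars were computed on the deposited scale only, so only the dots can be set against them. BCL2L11 at 77.7% and MCL1 at 59.6% lie to the right of their bars.

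No member passed the test between untreated TTR and untreated parental cells, where 7.11% of all genes were called (3.64% higher and 3.47% lower). With limma, 0 of 10 passed after adjustment and 2 at an unadjusted p under 0.05. Those 2 were PMAIP1, at -0.37 ± 0.12 in TTR cells relative to parental cells (limma adjusted p = 0.0711), and BCL2L1, at 0.21 ± 0.09 (limma adjusted p = 0.187). Every untreated TTR array was below every untreated parental array for PMAIP1 and above for BCL2L1, and the arrays of the lines were apart for 24.6% of all genes. PMAIP1 passed with array weights (limma adjusted p = 0.0181), and BCL2L1 did too (0.26, limma adjusted p = 0.0357). The other 8 differences lay between -0.21 for BCL2L11 and 0.15 for BAK1. MCL1 differed by 0.04 and BAX by 0.05.

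With TRAIL in both lines, 7 of 10 members differed between TTR and parental cells, against 54.4% of all genes (28.0% higher and 26.4% lower). The count is not far above the background and is not read as a result about the family. After centring 7 members and 50.1% of all genes were called (37.1% higher and 13.0% lower). After quantile normalization 8 members, 4 higher and 4 lower, and 47.2% of all genes were called (27.8% higher and 19.4% lower). TTR cells had more BID (0.77 ± 0.12, 1.70-fold, limma adjusted p = 3.57e-05), BAK1 (0.80 ± 0.12, 1.74-fold, 3.87e-05) and BCL2L1 (0.69 ± 0.09, 1.62-fold, 4.38e-06) than parental cells. They had less PMAIP1 (-1.28 ± 0.12, 2.43-fold, limma adjusted p = 1.15e-07), BBC3 (-1.12 ± 0.13, 2.17-fold, 1.49e-06), MCL1 (-0.51 ± 0.10, 1.42-fold, 3.62e-04) and BCL2L11 (-0.45 ± 0.13, 1.37-fold, 0.00837). For all 7 the arrays of the lines did not overlap, as held for 60.2% of all genes. The BCL2L11 difference did not pass after median centring (-0.25, limma adjusted p = 0.127). BAX, BCL2 and BCL2A1 differed by 0.01, 0.13 and 0.01. The BCL2 difference passed as higher after centring (0.33, limma adjusted p = 0.0118) and after quantile normalization (0.25, limma adjusted p = 0.0381).

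**Figure D4:**
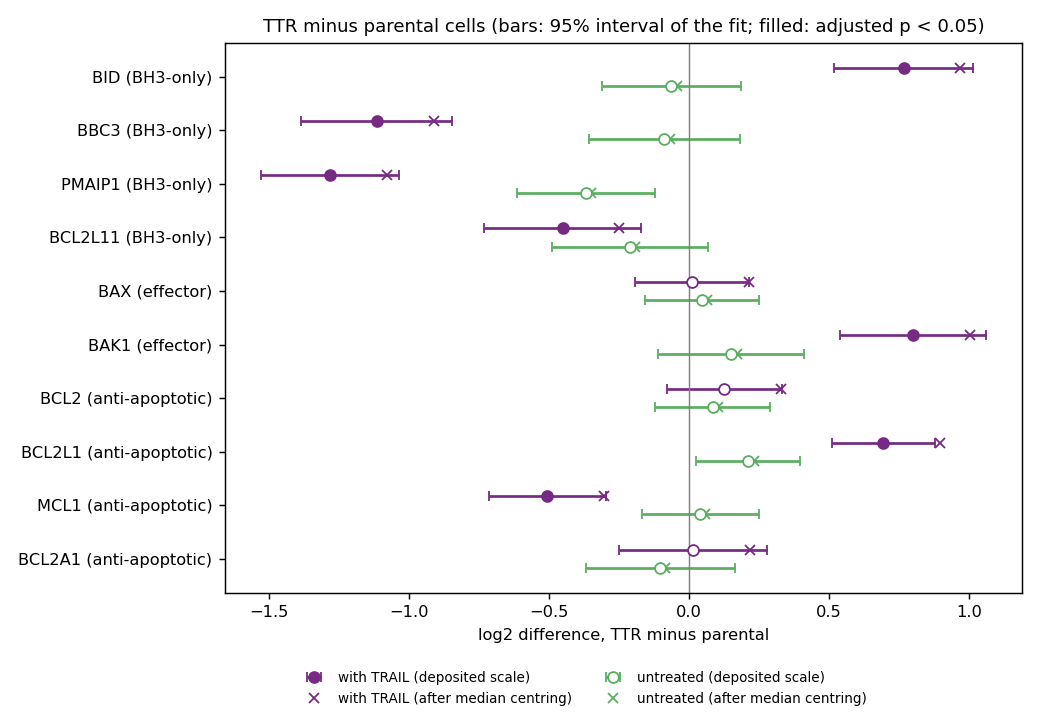
Log2 difference between TTR and parental cells for each of the 10 genes, with TRAIL and untreated, with bars for the 95% interval of the limma fit and filled points for an adjusted p under 0.05. Crosses give the difference after median centring. The untreated differences lie between -0.37 and 0.21, and those with TRAIL between -1.28 and 0.80.

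Differences between 2 members within an array are free of a shift that is equal for all features, but not of one that varies with level. Only their change between groups has a meaning here. PMAIP1 relative to MCL1, the guardian it binds, moved by -0.33 with TRAIL in TTR cells and by 0.03 in parental cells. BCL2L11 relative to BCL2L1, one of the guardians that BIM binds, moved by 0.94 with TRAIL in TTR cells and by 1.66 in parental cells. BAX relative to BCL2 moved by 0.05 in TTR and 0.13 in parental cells. After quantile normalization BAX changed by 0.33 and BCL2 by -0.30 with TRAIL in parental cells, so that difference depends on the scaling. The within-array differences are on the deposited scale and are descriptions without a test.

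The genes whose pattern over the 12 arrays was most like that of the 3 members with the widest range of group means were found by Pearson correlation, as a description. For PMAIP1 they were ANKRD37, PPP1R3C and MTND2P28, each at 0.99, and 328 genes reached 0.95. For BID they were TRUB1, ZNF451 and CCT2 at 0.99, and 597 genes reached 0.95. JUN, PLK3 and ZFP36 were nearest to MCL1, also at 0.99, and 146 genes reached 0.95. All points share the parental arrays with TRAIL that stand apart, and MTND2P28 is a near-identical copy of a mitochondrial gene whose signal is uncertain.

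Of the other BCL2 family genes, 12 were measured. TRAIL moved 0 of them in TTR cells by limma (1 at an unadjusted p under 0.05), with BCL2L13 at -0.40 (limma adjusted p = 0.0821) and BNIP3 at -0.20 (0.356). The share of all genes called in TTR cells was 5.82%. In parental cells 2 rose and 3 fell, so 5 of 12 were called where 58.8% of all genes were. The mitophagy receptors BNIP3L, BCL2L13 and BNIP3 fell by 1.29, 1.40 and 1.19 in log2, and the BH3-only genes BIK and HRK rose by 0.65 each. After median centring both rises were 0.36 and still passed. The BIK signal was low, with means of 3.53 untreated and 4.18 with TRAIL in parental cells, and signal above background was not called. HRK lay outside the rule for named genes and was added after its value was seen. The median change was -0.03 in TTR cells (-0.01 over all genes) and 0.06 in parental cells (0.06 over all genes). BOK, a BAX-like protein, was the 1 gene of this list higher in untreated TTR than untreated parental cells, by 0.36 (limma adjusted p = 0.0254). In that comparison 7.11% of all genes were called, 3.64% of them as higher in TTR cells and 3.47% as lower. The BOK call was lost without any 1 of the 3 untreated TTR arrays or without untreated parental replicate 1 or 3 (limma adjusted p of 0.0618 to 0.116). The interaction term passed for 5 of the 12 genes, 3 above 0 and 2 below, against 37.2% of all genes.

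Downstream of the pore, 12 genes of the release and apoptosome list were measured. By limma, 0 passed in TTR cells (3 at an unadjusted p under 0.05), and the nearest were DIABLO at -0.31 (limma adjusted p = 0.101) and HTRA2 at -0.42 (0.12), both encoding inhibitors of IAP proteins. In TTR cells 5.82% of all genes were called. In parental cells 10 fell and 2 rose, against 29.9% of all genes called lower and 28.9% higher. The outer membrane channels VDAC3 and VDAC2 fell by 1.80 and 1.97, and OPA1, which shapes the inner membrane, fell by 1.47. ENDOG, a mitochondrial nuclease, rose by 0.97, and CYCS, which encodes cytochrome c and was added after its value was seen, rose by 1.29. The median of the list was -0.24 in TTR cells and -0.86 in parental cells, and the interaction term passed above 0 for 8 genes and below 0 for 2, against 22.9% and 14.3% of all genes. APAF1, the scaffold of the apoptosome, was higher in untreated TTR than in untreated parental cells by 0.65 (limma adjusted p = 0.00216).

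Of the genes that control MCL1 protein turnover, 8 were measured. TRAIL moved 0 in TTR cells by limma (3 at an unadjusted p under 0.05), with MARCHF5 at -0.31 (limma adjusted p = 0.121) and HUWE1 at 0.42 (0.137). The share of all genes called there was 5.82%. In parental cells 6 fell and 1 rose, against 29.9% of all genes lower and 28.9% higher. The ubiquitin ligase genes MARCHF5 and BTRC fell by 1.72 and 1.48, the kinase gene GSK3B by 0.98, and USP9X, whose product removes ubiquitin from MCL1, by 1.11. The rise was HUWE1, an MCL1 ubiquitin ligase, at 0.39 (limma adjusted p = 0.0441), which after median centring was 0.10 and did not pass (limma adjusted p = 0.606). It also did not pass without any 1 parental TRAIL array or without untreated parental replicate 1 or 3 (limma adjusted p of 0.0586 to 0.171). The median change was -0.05 in TTR and -0.86 in parental cells, and the interaction term passed above 0 for 6 genes and below 0 for none, against 22.9% and 14.3% of all genes.

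Of the transcription factors known to act on genes of the family, 14 were measured. In TTR cells 5 rose, 0 fell and 9 did not pass, against 3.27% of all genes higher and 2.55% lower. In parental cells 9 rose and 4 fell, against 28.9% of all genes higher and 29.9% lower. JUN, part of AP-1, rose by 2.48 in TTR and 4.2 in parental cells. ATF3 rose by 2.39 in TTR and 3.63 in parental cells, and DDIT3 (CHOP), a factor of the integrated stress response, by 1.49 and 3.14. REL rose by 0.70 and MYC by 0.53 in TTR cells, and MYC rose by 1.84 in parental cells. In parental cells REL, named there after its value was seen, rose by 0.38 (limma adjusted p = 0.00993). The REL call in parental cells was lost after median centring (0.09, limma adjusted p = 0.507). It was also lost without parental TRAIL replicate 1 or untreated parental replicate 1 (limma adjusted p = 0.0504 and 0.0512). MYC was added for TTR cells after its value was seen. In parental cells the factors that fell, named after their values were seen, were NFKB1, STAT3, CREB1 and RELA, by 1.55, 0.82, 0.73 and 0.42. RELA did not pass after quantile normalization (-0.15, limma adjusted p = 0.414), without parental TRAIL replicate 3 (0.101) or without untreated parental replicate 1 (0.0602). The interaction term passed below 0 for 7 of the 14 and above 0 for 3, against 14.3% and 22.9% of all genes, with JUN at -1.72 and NFKB1 at 1.64 (limma adjusted p = 1.32e-06 and 5.22e-06). Between untreated lines MYC was higher in TTR than parental cells by 0.80 (limma adjusted p = 1.68e-04).

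**Figure D5:**
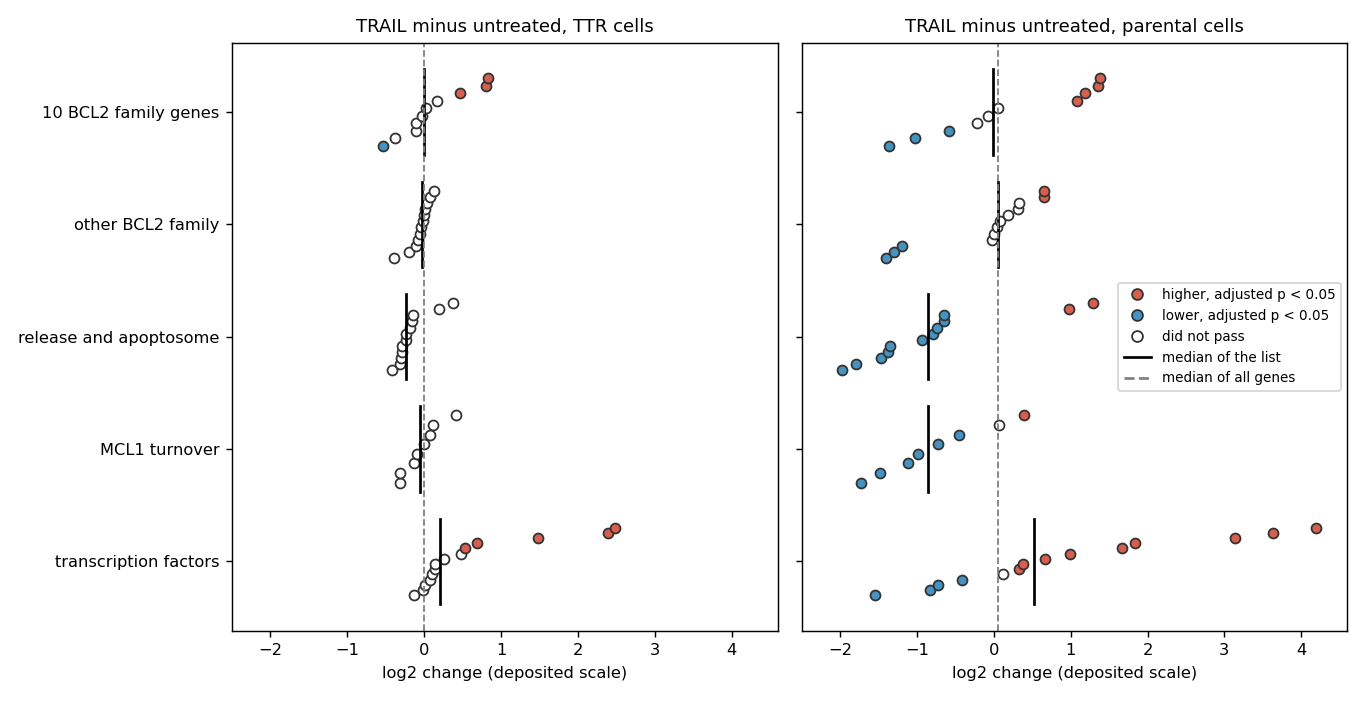
Log2 change with TRAIL of every measured gene in 5 lists, in TTR cells (left) and parental cells (right). Filled points passed at an adjusted p under 0.05, black lines are list medians and the dashed line is the median of all genes. In TTR cells the filled points lie in the BCL2 family and transcription factor lists, at up to 2.48, and in parental cells all 5 lists hold filled points.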

How the data were processed

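Log2 expression values for 12 arrays were analysed as deposited by the authors, who used Affymetrix Power Tools for RMA, per the submitters' processing notes. RMA as usually run removes changes in total RNA per cell. The sources used here do not give its settings or the genome build. Of 33252 features, 19460 named 1 gene in the platform annotation and 1754 named several. The feature with the highest mean was kept per gene, leaving 18417 genes. The number of arrays limits the precision. Signal above background was not called.

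All arrays were fitted with limma 3.58.1 in R 4.3.3 (1 mean per group, lmFit and eBayes, two-sided), with Benjamini-Hochberg adjustment over all genes. With 3 arrays a side, exact permutation p-values reach 0.1 at the lowest, so that test was not used. The script was tested on simulated data. Figures used matplotlib 3.10.9 in Python 3.11.15. Named genes were all 10 members and, from each other list, up to 4 called genes with the smallest p per comparison, or the 2 smallest as values where none passed. The members and lists were chosen with earlier results of these data known.

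Deviations from group means were compared between arrays that share a replicate number. Over 18 such pairs the correlation was -0.055 to 0.395, and 8 exceeded 0.1. Over 36 pairs of unlike number it was -0.374 to 0.302, and 2 exceeded 0.1. Only for TRAIL against untreated in TTR cells did all 3 pairs of like number exceed 0.1 (0.322, 0.146 and 0.395). Untreated parental replicate 3 also correlated with replicate 3 of untreated and treated TTR cells (0.373 and 0.264). Whether numbers pair the arrays is thus not settled, and the reported fit uses no pairing. Alternatives were median centring, quantile normalization, averaging the features of a gene, a filter on low values, array weights, a replicate block, only the groups compared, and leaving out each array. Added after seeing the data were a fit without the parental TRAIL arrays and a replicate block in the TTR groups alone.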

Additional observations from a re-analysis of the deposited data

Results flagged for a closer look

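For 6 of the 10 members the TRAIL change differed between TTR and parental cells by the interaction term of the limma fit. The same held for 37.2% of all genes (22.9% above 0 and 14.3% below). The log2 differences, TTR minus parental, were 0.83 for BID, -1.03 for BBC3, -0.91 for PMAIP1, 0.65 for BAK1, 0.48 for BCL2L1 and -0.55 for MCL1. In each the response in TTR cells was the smaller one, which was also common among all genes. Genes called higher by at least 0.5 in parental cells had a median TTR share of 23.9%, and those called lower 19.6%. All 6 passed without each array in turn, and MCL1 did not pass after median centring.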

How the results depend on the processing

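Of 725 member values under alternatives, 696 kept their direction and call or passed in neither setting, 12 no longer passed, 17 newly passed and 0 reversed. Among these, 24 changed sign while passing in neither setting. For TRAIL in TTR cells the number of genes called was 1072, against 2391 after median centring (448 higher and 1943 lower), 3199 with array weights, 1709 without the parental TRAIL arrays and 2670 with a replicate block in the TTR groups alone. Leaving out each array in turn gave 379 to 1443 genes and 2 to 3 members. It was 508, 379 and 693 without TTR TRAIL replicate 1, 2 and 3, and 450 and 542 without untreated TTR replicate 2 and 3. For untreated TTR against parental cells 1310 genes were called, against 2386 with array weights and 782 to 1316 leaving out each array, with 782 without untreated TTR replicate 2, 807 without untreated parental replicate 1 and 829 without untreated parental replicate 2. The members called there were 0, against 2 with array weights, 1 with the replicate block and 1 without the parental TRAIL arrays. The cause was not tested.

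Leaving out each array gave 7 to 8 members and 9805 to 10475 genes for TRAIL in parental cells, 7 members and 8772 to 9731 genes between lines with TRAIL, and 6 members and 6008 to 6912 genes for the interaction. In the fit of all arrays the replicate block changed 1 member call, PMAIP1, which passed between untreated lines (adjusted p = 0.0175 by limma). With it, 11138, 1567, 1672, 10384 and 7276 genes were called for TRAIL in parental cells, TRAIL in TTR cells, the untreated lines, the lines with TRAIL and the interaction. Of called genes in parental cells with TRAIL, 49.1% were higher as deposited, 21.3% after centring and 37.9% after quantile normalization. Each member had 1 feature, so no other feature of a member could be tried. Low signal limits BCL2A1.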
